A study of Mus musculus with 4 samples.

Results

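The genes described here encode subunits of the phagocyte NADPH oxidase: Cybb, Cyba, Ncf1, Ncf4, Rac1 and Rac2. They are 6 of 24422 named genes, chosen by their symbols from the known makeup of the enzyme, with earlier results of these data known. Each was represented by its RefSeq transcript with the highest mean read count. Poly(A) RNA was sequenced from RAW 264.7 cells, a mouse macrophage line transformed by a leukaemia virus, in 4 libraries. Cells with the stably kept empty vector pcDNA 3.1(+) gave 2 control libraries, and cells stably expressing the long noncoding RNA Dnm3os gave the other 2. All cells were between passages 3 and 6, in medium with 5.5 mmol/L glucose and beta-mercaptoethanol. The labels give no number of clones or pools behind either stable line and leave unstated whether duplicates were separate cultures. The p-values therefore measure only the spread between these libraries, which may be technical.

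The phagocyte oxidase moves electrons from cytosolic NADPH across the membrane onto oxygen and so makes superoxide, with which macrophages and neutrophils attack ingested microbes. Its membrane core, flavocytochrome b558, is a heterodimer of the catalytic chain gp91phox (Cybb, also called NOX2) and p22phox (Cyba), and each chain helps to stabilise the other. In resting cells soluble subunits such as p47phox (Ncf1) and p40phox (Ncf4) stay in the cytosol, and on activation they dock on the core together with a GTP-bound Rac protein. Loss of a single subunit such as gp91phox, p22phox or p47phox causes chronic granulomatous disease. Superoxide was not measured in these libraries, and mRNA levels do not show the activity of the assembled enzyme.

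Summed counts over all transcripts were 48480628 to 65610942 per library, and 29416272 to 39769640 with 1 transcript per gene. Dnm3os itself had 0 counts in both controls and was read 208 and 260 times in the cells labelled Dnm3os. All 8 macrophage markers were detected, with a summed level of 8842 to 9009 CPM (read counts scaled to library size) in the empty vector and 9713 to 10207 CPM in the Dnm3os libraries. Of these 8 markers, 4 rose and 2 fell, where 12.3% of all genes tested were called in either direction. The neutrophil markers Mpo, Ly6g, S100a9, Camp and Ltf were at 0 counts in all 4 libraries, and the 7 neutrophil markers together summed to 4.27 to 4.54 CPM in the empty vector and 5.19 to 5.95 CPM in the Dnm3os libraries. T cell, B cell, fibroblast and epithelial markers each summed to at most 0.272 CPM in any library. The 4 endothelial markers summed to 0.326 to 0.453 CPM in the empty vector and 0.904 to 1.02 CPM in the Dnm3os libraries, and 1 of them, the growth factor receptor Kdr, rose from 0.201 and 0.311 to 0.714 and 0.642 CPM (2.65-fold by the edgeR fit, adjusted p = 0.0281). The part of these shifts in the subunit results was not tested, and in bulk RNA fewer cells of a kind and less RNA per cell cannot be told apart.

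The subunit that differed most was Cybb, whose promoter window is shown beside that of its partner Cyba because only 1 of the 2 chains of the membrane core was called. Both are RefSeq windows of build GRCm38.p6, minus strand, read 5′ to 3′ from 250 bases before the annotated start site to 30 bases after it. The Cybb stretch is chrX:9469295-9469574 and the Cyba stretch is chr8:122432911-122433190. Capitals mark matches to the motifs searched on both strands, GAGGAA, the core of PU.1 sites, and GGAANNGAA, a composite ETS and IRF element.
Cybb: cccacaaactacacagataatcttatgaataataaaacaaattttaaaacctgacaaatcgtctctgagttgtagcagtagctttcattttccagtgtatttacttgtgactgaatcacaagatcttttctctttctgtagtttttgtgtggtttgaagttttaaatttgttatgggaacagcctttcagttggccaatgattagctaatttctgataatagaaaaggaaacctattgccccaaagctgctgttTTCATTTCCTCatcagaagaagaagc
Cyba: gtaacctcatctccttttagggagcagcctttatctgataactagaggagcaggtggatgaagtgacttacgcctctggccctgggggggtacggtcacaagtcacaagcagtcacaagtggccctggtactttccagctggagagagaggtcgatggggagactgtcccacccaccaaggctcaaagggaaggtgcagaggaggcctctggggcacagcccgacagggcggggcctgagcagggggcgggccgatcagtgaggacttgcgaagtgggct

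In the Cybb window both motifs matched on the opposite strand and overlapped each other, GAGGAA at bases 10 to 15 and GGAANNGAA at bases 5 to 13 after the annotated start. The windows of Cyba and Ncf1 held neither motif, and 3 of the 6 subunit genes had a window in the table. Of 32851 windows of 300 bases, 28.3% held GAGGAA and 8.24% held GGAANNGAA. A match describes the letters alone. PU.1 and IRF8 are known activators of Cybb transcription in myeloid cells, and their own transcripts are described with the other transcription factors.

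Cybb rose and stood far apart from the other subunits. Its read counts were 4529 and 4307 with the empty vector and 8125 and 9068 with Dnm3os, although both Dnm3os libraries were shallower than the controls. Scaled to depth, these were 114 and 122 CPM against 276 and 264 CPM. The groups did not overlap, and the libraries of a group differed by far less than the groups did, with coefficients of variation of 5.00% and 3.03%. The mean went from 118 ± 5.89 to 270 ± 8.20 CPM (SD, n = 2 per group), a log2 fold change of 1.20 ± 0.04 (SE) with a 95% interval of 1.12 to 1.28 (adjusted p = 1.81e-15 by edgeR's quasi-likelihood test). This put Cybb sixth of the 13172 genes tested by p-value, and 98.4% of those genes had a smaller absolute log2 fold change. Across 15 alternative settings its log2 fold change lay between 1.14 and 1.25 and was called in all 15.

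Cyba, the p22phox chain that pairs with gp91phox, did not pass the threshold. It had 184 and 182 CPM in the empty vector libraries and 191 and 197 CPM in the Dnm3os libraries. Both Dnm3os values lay above both empty vector values, but the gap was small beside that of Cybb. The log2 fold change was 0.09 ± 0.03, with a 95% interval of 0.02 to 0.15 before adjustment (adjusted p = 0.0904 by edgeR). In percent, that interval runs from 1.34% to 11.1% higher, so a change as large as that of Cybb lies far outside it.

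**Figure D1:**
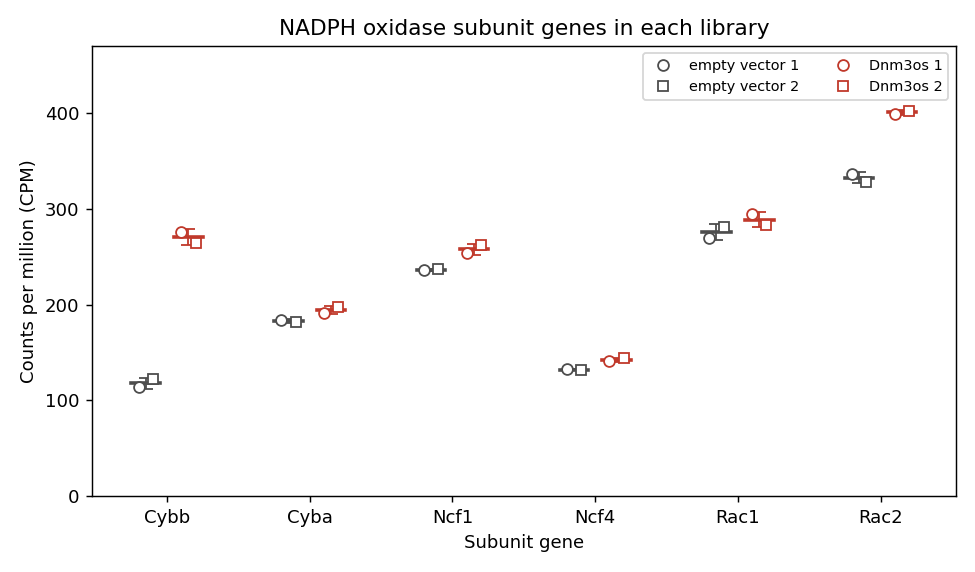
CPM (vertical axis) of the 6 oxidase subunit genes (horizontal axis) in each empty vector (grey) and Dnm3os (red) library; symbols are libraries 1 (circle) and 2 (square), thick bars group means and error bars the SD (n = 2). Cybb went from 114 and 122 to 276 and 264 CPM, and the other 5 genes moved by at most the 20.6% of Rac2.

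Among the cytosolic subunits, Ncf1, which encodes the organiser p47phox, rose slightly. Its level was 236 and 237 CPM in the empty vector libraries and 254 and 262 CPM in the Dnm3os libraries. The groups did not overlap, and the mean went from 237 ± 1.04 to 258 ± 5.67 CPM (SD, n = 2 per group). The log2 fold change was 0.13 ± 0.03, or 9.08% (adjusted p = 0.00914 by edgeR). Leaving out empty vector library 1 ended the call (adjusted p = 0.0805 by edgeR), as did leaving out Dnm3os library 2 (adjusted p = 0.155 by edgeR), and the 15 alternatives gave adjusted p-values from 0.00239 to 0.155.

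Ncf4 encodes p40phox, which binds the phagosomal lipid phosphatidylinositol 3-phosphate. It had 132 and 132 CPM in the empty vector libraries, the closest pair among the subunits, and 141 and 144 CPM in the Dnm3os libraries. These groups did not overlap either. The log2 fold change was 0.11 ± 0.03, or 7.70% (adjusted p = 0.0276 by edgeR). Of the 4 subunits called, this one lost its call most often: 7 of 15 alternatives ended it, namely DESeq2, limma-voom, summed isoforms and the removal of any single library, with adjusted p up to 0.250 by DESeq2. Ncf4 has 1 transcript, so summing isoforms left its own counts as they were and changed only other genes in the fit.

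The Rac proteins are small GTPases that switch the assembled oxidase on; Rac2 is restricted to blood cells, whereas Rac1 is made in nearly all cells. Rac2 rose, from 336 and 328 CPM to 399 and 403 CPM. The groups were well apart, at means of 332 ± 5.58 and 401 ± 2.51 CPM (SD, n = 2 per group). The log2 fold change was 0.27 ± 0.03, or 20.6% with a 95% interval of 15.4% to 25.9% (adjusted p = 8.78e-07 by edgeR). Rac2 was called in all 15 alternatives, with log2 fold changes between 0.25 and 0.28.

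Rac1 had 270 and 282 CPM in the empty vector libraries and 294 and 283 CPM in the Dnm3os libraries. The higher empty vector value and the lower Dnm3os value nearly touched. The log2 fold change of 0.07 ± 0.03 did not pass (adjusted p = 0.222 by edgeR), and its 95% interval ran from -0.0556% to 9.90%. It was 0.0319 without empty vector library 1 and 0.0380 without Dnm3os library 1. Rac1 and Rac2 are close paralogs, and how the authors' counting treated reads that fit both is not given in the sources used here.

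In all, 4 of the 6 subunits were called higher, against 6.51% of the 13172 genes tested, and 0 were called lower, against 5.75%. The members were chosen with earlier results of these data known, so the shares are given as description only. Called in either direction were 12.3% of all genes. No subunit was lower by edgeR at an unadjusted p of 0.05 (0 genes), by DESeq2 (0) or by limma-voom (0). CPM of the groups did not overlap, with the Dnm3os libraries higher, for 6 of the 6 subunits, against 26.2% of all genes tested; groups did not overlap in either direction for 51.2%. The median log2 fold change of the 6 was 0.12 and that of all genes 0.00061. DESeq2, which called 5.82% of all genes in either direction, called 3 subunits higher. So did limma-voom, which called 720 of the 13172 genes higher and 614 lower. Only Cybb and Rac2 (2 of 6) were called when empty vector library 1 or Dnm3os library 2 was left out.

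**Figure D2:**
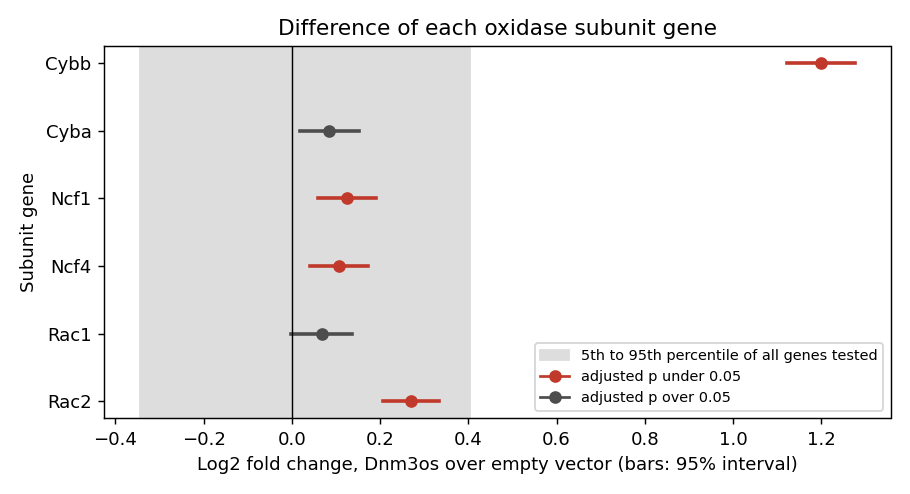
Log2 fold change of Dnm3os over empty vector (horizontal axis) for each subunit gene (vertical axis), with points for the edgeR estimates, bars for their 95% intervals and red for an adjusted p under 0.05; the grey band spans the 5th to 95th percentile of all 13172 genes. Cybb at 1.20 lies outside the band from -0.34 to 0.40, and the other 5 subunits lie inside it.

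The unequal changes moved the proportions of subunit reads within each library, which need no scaling between libraries. Per Cyba read there were 0.616 and 0.671 Cybb reads in the empty vector libraries and 1.44 and 1.34 in the Dnm3os libraries. The ratio went from 0.643 ± 0.039 to 1.39 ± 0.073 (SD, n = 2 per group), so Cybb reads outnumbered Cyba reads only in the Dnm3os libraries. Cybb over Ncf1 shifted likewise, from 0.482 and 0.514 to 1.09 and 1.01. Rac2 over Rac1 went from 1.25 and 1.17 to 1.36 and 1.42. Ncf1 over Ncf4 was 1.782 and 1.796 against 1.804 and 1.819, means of 1.79 ± 0.0101 and 1.81 ± 0.0103. In none of the ratios given here did the groups overlap, this small shift included. The share of other gene pairs without overlap was not computed. With 2 libraries a group no exact permutation test of such a ratio can give a two-sided p under 0.333, so none was tested.

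**Figure D3:**
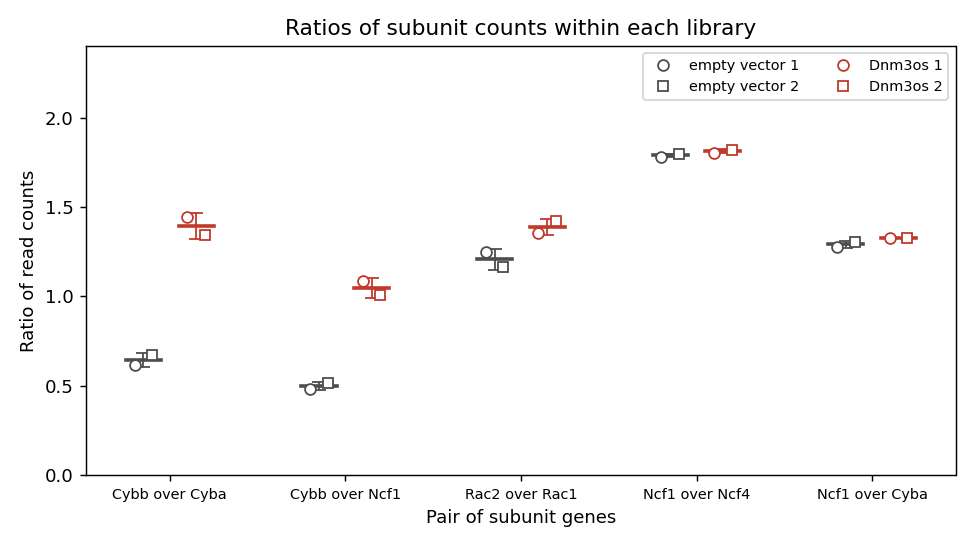
Ratio of read counts (vertical axis) for 5 pairs of subunit genes (horizontal axis) in each empty vector (grey) and Dnm3os (red) library; thick bars are group means and error bars the SD (n = 2). Cybb over Cyba moved from 0.643 to 1.39, and Ncf1 over Ncf4 and Ncf1 over Cyba moved least.

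A comparison of levels between genes needs the transcript length, here that of the GENCODE M21 transcript linked to each RefSeq transcript, which may differ in its ends from the model the authors counted. Per kilobase, Cyba was the most abundant subunit in the empty vector libraries, at 246 ± 2.67 CPM per kb (SD, n = 2) over a transcript of 744 bases. Rac2 followed with 109 ± 1.84 and Ncf4 with 90.3 ± 0.113 CPM per kb. Ncf1 stood below Ncf4 by its transcript of highest count (85.6 ± 0.377 CPM per kb) and above it by its shorter noncoding transcript (101 ± 0.231), so the order of Ncf1 and Ncf4 depends on the transcript taken. Cybb, with a transcript of 4752 bases, was the lowest at 24.8 ± 1.24 CPM per kb. In the Dnm3os libraries Cyba stood at 261 ± 5.73 and Cybb at 56.9 ± 1.73 CPM per kb, so per length Cybb was still the lowest and Cyba the highest. By its transcript of highest count Ncf1 had 91.9 and 94.8 CPM per kb in the Dnm3os libraries against 96.1 and 98.4 for Ncf4, and by its noncoding transcript 108 and 112. Rac1 could not be placed, because its 2 transcripts have linked lengths of 2325 and 4159 bases but nearly the same counts, which gives 119 or 63.2 CPM per kb in the empty vector libraries.

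Of the 6 genes, 3 had more than 1 transcript, whose counts overlap because reads from shared exons are counted in each. For Ncf1, 2 of its 3 transcripts had almost the same counts in every library (9403 and 9395 in empty vector library 1). The third, a noncoding RefSeq transcript, had 5335 to 6002 reads in the empty vector libraries and 4742 to 5770 in the Dnm3os libraries. Their log2 ratios of mean CPM were 0.13, 0.13 and 0.13. Cyba had 2 transcripts with log2 ratios of 0.09 and 0.09, and Rac1 had 2 with 0.07 and 0.07. The choice of transcript left the differences of these genes where they were. The transcripts share reads, so near-equal ratios were largely fixed beforehand and are no separate check. In RefSeq a long noncoding gene overlaps Cybb (Gm33784) and another overlaps Ncf1, and without a known strand setting reads of such a gene cannot be told apart from those of the subunit.

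The genes whose profile over the 4 libraries lay nearest to that of Cybb were taken by Euclidean distance between log2 CPM values centred on each gene's own mean, among 7180 genes with a mean of at least 20 CPM. Predicted genes (Gm with a number, names ending in Rik, LOC) and unnamed transcripts were left out beforehand. Nearest was Mir6236, a gene annotated as a microRNA (distance 0.120), then the endosomal nuclease Pld4 (0.126) and Acod1 (0.164), the enzyme that makes itaconate. Itgam, the CD11b chain of the complement receptor integrin (0.193), and the Schlafen gene Slfn4 (0.226) followed. Their log2 fold changes were 1.10, 1.30, 1.35, 1.01 and 1.37 in that order. These genes were picked for a profile like that of Cybb, so fold changes near its own follow from the choice. The distances are descriptions over 4 libraries.

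Genes known to act on the oxidase were read from 7 lists, ordered by role, that held 76 genes, of which 65 could be tested. Of the 65, 10 rose, 7 fell and 48 did not pass, with a median log2 fold change of -0.01. That is 26.2% called, against 12.3% of all genes tested (6.51% higher and 5.75% lower), and nothing particular to the lists is read from it. By DESeq2, which called 5.82% of all genes, 6 rose and 4 fell. Without Dnm3os library 1 there were 6 and 3, without Dnm3os library 2 also 6 and 3, and 4 fell without empty vector library 2. Each called gene of these lists had a smaller absolute log2 fold change than Cybb, the largest being that of Irf8 at 0.62.

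**Figure D4:**
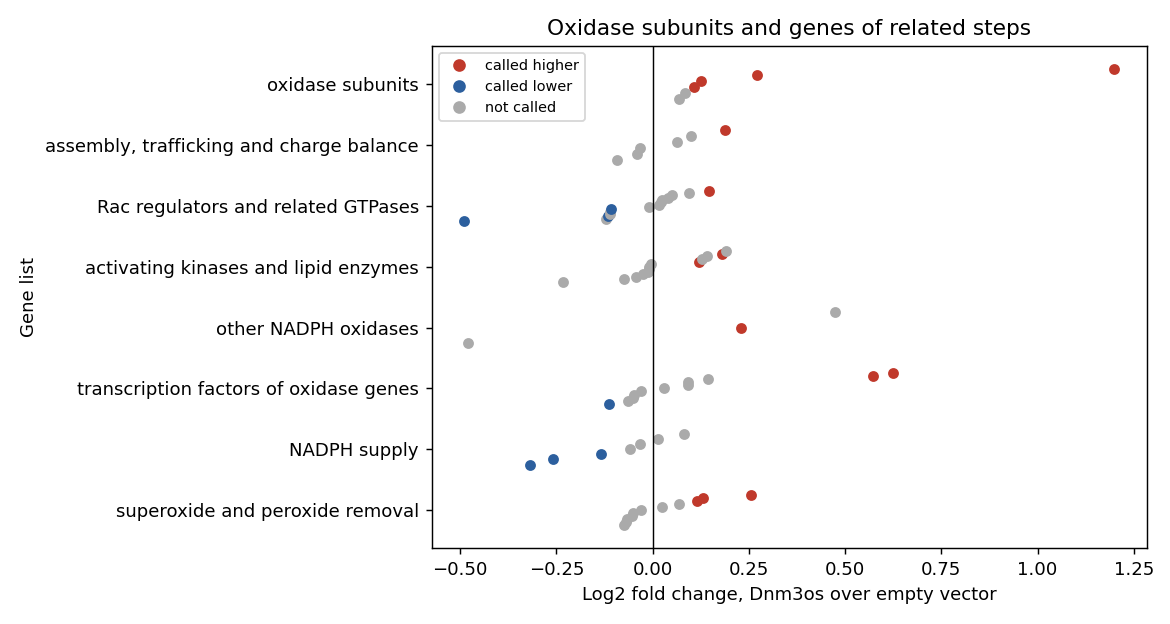
Log2 fold change of Dnm3os over empty vector (horizontal axis) for the 6 subunits and the tested genes of 7 lists of related steps (vertical axis), with called genes in red (higher) and blue (lower) and genes that did not pass in grey; vertical offsets within a list only separate points. Cybb at 1.20 is the point farthest to the right, ahead of Irf8 at 0.62 and Cebpb at 0.57.

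Proteins that mature, place or electrically balance the oxidase were called about as often as genes at large (16.7% against 12.3%). Among 6 genes tested there was 1 rise, no fall (0) and 5 that did not pass; lower were 1 by edgeR at unadjusted p below 0.05, 0 by DESeq2 and 0 by limma-voom. In 3 alternatives 1 gene was called lower: no filter on low counts, the crossed block, and empty vector library 1 left out. Rap1a, a small GTPase that copurifies with the flavocytochrome, rose from 113 and 113 to 128 and 130 CPM (log2 fold change 0.19 ± 0.03, adjusted p = 0.000303 by edgeR). Rap1b, of the same list, had 395 and 418 CPM in the empty vector libraries and 379 and 384 CPM in the Dnm3os libraries. Its log2 fold change of -0.09 ± 0.03 did not pass (adjusted p = 0.0675 by edgeR). Cybc1, also called Eros, the chaperone that the gp91phox and p22phox chains need to mature, had 42.3 and 45.1 CPM in the empty vector libraries and 42.1 and 42.8 CPM in the Dnm3os libraries. Nrros, which limits the oxidase by promoting the breakdown of gp91phox, had 124 and 125 against 120 and 124 CPM. Neither passed the threshold (adjusted p = 0.733 and 0.647 by edgeR).

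Regulators of Rac were mixed: among 14 tested genes, 1 rose and 3 fell, and 10 did not pass (28.6% called, against 12.3% of all genes). The exchange factor Tiam1 fell from 70.7 and 68.2 to 50.2 and 48.8 CPM (log2 fold change -0.49 ± 0.04, adjusted p = 2.88e-08 by edgeR). Elmo1, a partner of DOCK exchange factors, rose by a log2 fold change of 0.15 ± 0.04, and Abr, a GTPase-activating protein for Rac, fell by 0.12 on the log2 scale. The exchange factor Vav1 fell by 0.11 on the log2 scale (adjusted p = 0.0372 by edgeR). The call of Elmo1 ended by DESeq2 and without Dnm3os library 1, that of Abr when empty vector library 2 or any Dnm3os library was left out, and that of Vav1 in those 3 cases, with the replicate block (adjusted p = 0.0505), by DESeq2, by limma-voom and with isoforms summed. Without empty vector library 2 the log2 fold change was -0.0762 for Abr and -0.0684 for Vav1. Arhgdib, which holds Rac proteins inactive in the cytosol of blood cells, had a mean of 470 CPM in the empty vector and 477 CPM in the Dnm3os group (adjusted p = 0.716 by edgeR).

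Kinases and lipid enzymes that activate the oxidase held 13 tested genes, of which 2 rose, 0 fell and 11 did not pass, a called share of 15.4% near the 12.3% of all genes. The rises numbered 1 by DESeq2, 1 without empty vector library 1 or Dnm3os library 1, and 0 without Dnm3os library 2. Lower were 2 by edgeR at unadjusted p below 0.05, 0 by DESeq2 and 0 by limma-voom. Prkcd, a protein kinase C isoform that phosphorylates p47phox, rose from 110 and 109 to 120 and 127 CPM (log2 fold change 0.18 ± 0.04, adjusted p = 0.00124 by edgeR), a call lost without Dnm3os library 2. Of the other isoforms in the list, Prkca had means of 12.4 CPM in the empty vector and 10.5 CPM in the Dnm3os group. The log2 fold change of Prkca, -0.23 ± 0.09, did not pass (adjusted p = 0.111 by edgeR). Prkcb had means of 0.424 and 0.483 CPM and did not pass either (adjusted p = 0.849 by edgeR). Mapk14, the p38 kinase, rose by 0.12 ± 0.03 (adjusted p = 0.0255 by edgeR) and lost its call by DESeq2 and on the removal of any single library.

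Among the other NADPH oxidases and their partners, Nox4, Noxa1, Duox1, Duox2 and Duoxa2 had 0 counts in all 4 libraries. Nox1, the colon-type homologue of gp91phox, was detected at 26.1 and 26.5 CPM in the empty vector libraries and 31.3 and 30.4 CPM in the Dnm3os libraries. It rose by a log2 fold change of 0.23 ± 0.06 (adjusted p = 0.0114 by edgeR), a call that ended by DESeq2 and on leaving out empty vector library 1 or any 1 library of the Dnm3os pair. Its organiser partner Noxo1 had only 18 and 21 reads with the empty vector against 22 and 24 with Dnm3os and did not pass (adjusted p = 0.470 by edgeR). Of the 3 genes of this list that were tested, 1 rose (33.3% called against 12.3% of all genes) and 0 fell, with 0 lower by edgeR at unadjusted p below 0.05, 0 by DESeq2 and 0 by limma-voom.

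Transcription factors known to act on oxidase genes had 11 tested members, of which 2 rose, 1 fell and 8 did not pass, or 27.3% called against 12.3% of all genes. Irf8 rose from 16.4 and 17.3 to 26.6 and 25.4 CPM (log2 fold change 0.62 ± 0.07, adjusted p = 5e-07 by edgeR). Cebpb rose from 41.8 and 45.6 to 58.8 and 70.6 CPM (log2 fold change 0.57 ± 0.11, adjusted p = 0.0396 by edgeR), the widest spread between Dnm3os libraries of the genes named here, and lost its call with isoforms summed and under a crossed replicate block. Cux1, a repressor of the human Cybb homologue, fell by 0.11 on the log2 scale (adjusted p = 0.0215 by edgeR; -0.0708 with isoforms summed), a call that ended by DESeq2, with isoforms summed and on leaving out empty vector library 2 or any 1 of the Dnm3os pair. Spi1, which encodes PU.1, had 302 and 289 CPM in the empty vector libraries and 284 and 295 CPM in the Dnm3os libraries, and these groups overlapped (adjusted p = 0.663 by edgeR). Whether the change of Irf8 has a part in that of Cybb was not tested.

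The supply of NADPH, the electron donor of the oxidase, held 7 genes, of which 0 rose, 3 fell and 4 did not pass, or 42.9% called against 12.3% of all genes (5.75% lower). Before adjustment edgeR had 0 higher at p below 0.05, and DESeq2 had 0 and limma-voom 0. Malic enzyme Me1 fell from 69.7 and 72.1 to 55.8 and 57.8 CPM (log2 fold change -0.32 ± 0.04, adjusted p = 1.06e-05 by edgeR). Transaldolase, Taldo1, a pentose phosphate pathway enzyme that makes no NADPH itself, fell from 332 and 335 to 279 and 279 CPM. The isocitrate dehydrogenase Idh1 fell from 131 and 138 to 123 and 122 CPM. DESeq2 ended the call of Idh1, and so did the removal of empty vector library 2 or of any 1 Dnm3os library. G6pdx, the first and rate-limiting enzyme of the pentose phosphate pathway, had means of 509 and 498 CPM (adjusted p = 0.575 by edgeR).

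Enzymes that remove superoxide and peroxide held 11 tested genes, of which 3 rose, 0 fell and 8 did not pass, or 27.3% called against 12.3% of all genes (6.51% higher). Before adjustment edgeR had 2 lower at p below 0.05, while DESeq2 had 0 and limma-voom 0, and 1 was called lower without empty vector library 2. Prdx5, a peroxiredoxin of mitochondria and peroxisomes, rose from 65.4 and 66.5 to 78.3 and 79.2 CPM (log2 fold change 0.26 ± 0.04, adjusted p = 6.48e-05 by edgeR). The cytosolic Prdx1 rose by 0.13 ± 0.02 and the mitochondrial superoxide dismutase Sod2 by 0.12 ± 0.03. Sod2 was not called by DESeq2, with isoforms summed, or once empty vector library 1 or any 1 Dnm3os library was removed.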

How the data were processed

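Per the labels' protocols, poly(A) RNA was prepared with a TruSeq kit for a HiSeq 2500 sequencer. TopHat, Bowtie2, DESeq2 and the build mm9 stand in the submitters' processing notes. Versions, the counting tool and its strand use were not given in the sources used here.

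The authors' deposited raw column holds read counts for 35786 RefSeq transcripts per library. The deposited normalized column is a signal equal to the raw count times 1 constant per library (checked on every transcript), and only its constants were used. Symbols came from RefSeq (35499 transcripts) and GENCODE M21 (178) tables, and 109 stayed unnamed, holding 0.246 to 0.276% of the counts. The 45S ribosomal transcript was removed, and each gene was read from its transcript of highest mean count. CPM are scaled with TMM factors (0.997 to 1.003).

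Genes were filtered with filterByExpr and tested with edgeR 4.0.16 in R 4.3.3 (glmQLFit, robust; glmQLFTest; two-sided; Benjamini-Hochberg over 13172 genes; threshold 0.05). SEs were derived from each log2 fold change and its F statistic, and 95% intervals are not adjusted. The fit was tested on simulated data of the same size: unadjusted p-values were calibrated, but false genes made up a larger share of the adjusted calls than the threshold states, so calls with an adjusted p close to the threshold are less firm than it implies. Replicates of a group differed by more than counting noise. Counting error for the subunits was at most 1.55% of a count.

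Named were the 6 subunits, Dnm3os, up to 3 called genes per list with the smallest adjusted p, and the 5 nearest to Cybb. Rap1b, Prkca, Prkcb, Cybc1, Nrros, Arhgdib, Vav1, Noxo1, Spi1, G6pdx and genes at 0 were named after their values were seen. The members and lists were chosen with earlier results of these data known. The values of 1 list gene are not reported here. Alternatives were DESeq2 size factors, upper-quartile factors, total counts, the authors' constants, DESeq2 1.42.0, limma-voom (limma 3.58.1), no filter, a floor of 1 CPM in at least 2 libraries, the replicate block, summed isoforms, each library left out, and, chosen after seeing the data, a crossed block. Where 1 library of a group remained, its variation was taken to equal that of the other group.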

Additional observations from a re-analysis of the deposited data

How the results depend on the processing

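Cybb and Rac2 kept their direction and their call, and Rac1 its direction without a call, under the 15 alternatives run. The subunits called higher numbered 2 to 3 with 1 library left out, from 2 without empty vector library 1 or Dnm3os library 2 to 3 without the other 2 libraries. Leaving out 1 library gave log2 fold changes of 0.103 to 0.145 for Ncf1 and 0.0900 to 0.121 for Ncf4, and Ncf4 was also not called by DESeq2 (0.105), by limma-voom (0.107) or with isoforms summed (0.107). Whether same-numbered libraries were paired is not given in the sources used here. Over 9979 genes with a mean of at least 5 CPM, the deviations of same-numbered libraries correlated at -0.202. The replicate block gave 868 genes higher and 782 lower, with 4 subunits higher, a log2 fold change of 1.20 for Cybb and no change in the call of any subunit; of the other named genes it ended the call of Vav1 only. A crossed pairing, chosen after seeing the data, gave 1054 genes higher and 945 lower, with 5 subunits higher, as Cyba was called (0.0853).

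Pathway genes called higher and lower were 6 and 4 by DESeq2, and 6 to 10 and 3 to 8 with 1 library left out. All genes called higher and lower were 404 and 362 by DESeq2, against 858 and 758, and 465 to 808 and 396 to 786 with 1 library left out, at 492 and 455 without Dnm3os library 1 and at 465 and 396 without Dnm3os library 2. The log2 fold change of Cybc1, not called, ranged from -0.0906 to 0.00617 with 1 library left out and changed sign without empty vector library 2. The median log2 fold change of all genes lay between -0.00347 and 0.000708 over all settings. The causes of these differences were not tested.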
